A study of Mus musculus with 9 samples.

Results

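The keratins of the interfollicular epidermis were measured in mouse back skin by RNA sequencing. They are 8 genes chosen by name out of the 29205 genes in the table, namely the basal keratins Krt5, Krt14 and Krt15 and the suprabasal keratins Krt1, Krt10, Krt2, Krt77 and Krt80. All 9 libraries came from male BALB/c mice, 6 to 8 weeks of age, whose backs had been shaved and treated with depilatory cream, the control group included, and the skin was taken on day 13. The control group received no drug. The IMQ group had 62.5 mg of imiquimod cream (5% w/w) spread daily on the back for 5 days, which is used as a psoriasis-like model. The LYS group had the same cream and Longkui Yinxiao soup, a herbal decoction that the study's methods describe as given into the stomach, at the higher of its doses. Each group has 3 libraries, which the labels number without stating a pairing.

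Keratins are the intermediate filament proteins of epithelial cells, and a filament forms from a type I chain paired with a type II chain. Dividing keratinocytes on the basement membrane make the pair of Krt14 (type I) and Krt5 (type II), and Krt15 is a further type I chain of basal and hair follicle cells. When a cell leaves the basal layer it switches to Krt10 (type I) and Krt1 (type II), and the type II chains Krt2, Krt77 and Krt80 belong to later or more restricted stages of differentiation. Because this was whole skin, fewer cells of a type and less RNA per cell cannot be told apart.

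The genes lie in the keratin clusters of the GRCm38 genome, all on the minus strand. The type I genes are on chromosome 11, with Krt10 (ENSMUSG00000019761) at chr11:99385254-99389364, Krt15 (ENSMUSG00000054146) at chr11:100131758-100135928 and Krt14 (ENSMUSG00000045545) at chr11:100203162-100207548. The type II genes are on chromosome 15, with Krt80 (ENSMUSG00000037185) at chr15:101347444-101370162, Krt5 (ENSMUSG00000061527) at chr15:101707070-101712898 and Krt2 (ENSMUSG00000064201) at chr15:101810689-101818169. Krt1 (ENSMUSG00000046834) follows at chr15:101845426-101850794 and Krt77 (ENSMUSG00000067594) at chr15:101858731-101869705.

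The promoters of Krt2 and Krt77 are shown because these genes were nearly lost from both treated groups, and that of Krt10 because it moved the other way. RefSeq (GRCm38.p6) gave a promoter for 5 of the 8 genes. Each line holds the 250 bases before the annotated start, and capitals mark matches, on either strand, to TATANA as a form of the TATA box.
Krt2, chr15:101818170-101818419, minus strand: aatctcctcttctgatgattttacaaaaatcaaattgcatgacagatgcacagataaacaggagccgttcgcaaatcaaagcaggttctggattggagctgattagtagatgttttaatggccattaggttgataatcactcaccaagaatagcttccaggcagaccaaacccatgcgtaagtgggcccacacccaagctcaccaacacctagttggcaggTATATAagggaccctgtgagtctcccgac
Krt77, chr15:101869706-101869955, minus strand: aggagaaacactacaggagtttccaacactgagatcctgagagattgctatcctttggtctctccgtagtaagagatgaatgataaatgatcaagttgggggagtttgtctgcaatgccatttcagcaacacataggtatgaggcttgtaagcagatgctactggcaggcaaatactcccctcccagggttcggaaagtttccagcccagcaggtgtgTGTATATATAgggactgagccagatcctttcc
Krt10, chr11:99389365-99389614, minus strand: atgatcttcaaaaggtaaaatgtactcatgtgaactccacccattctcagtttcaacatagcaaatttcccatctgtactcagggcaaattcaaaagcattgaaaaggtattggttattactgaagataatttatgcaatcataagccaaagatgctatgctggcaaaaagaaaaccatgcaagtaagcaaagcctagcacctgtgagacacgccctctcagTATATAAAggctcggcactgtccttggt
All 3 carry TATANA close to the start, where the match nearest to it begins 29 bases before the start in Krt2, 28 in Krt77 and 26 in Krt10. Such a match is in 22.6% of 32851 promoters of this length, and its overlapping copies number 1, 3 and 2 in these genes. No match to TGANTCA, the AP-1 motif, was present in the 5 windows, against 6.75% of all promoters. The entries for Krt5 and Krt14, which rose as Krt10 did, held no match to TATANA, and a match is a description only. The Krt14 entry of RefSeq begins at a start inside the gene span given above, so its window lies downstream of that span's own start.

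The libraries held 14658645 to 19609878 counts. Levels are given as CPM after trimmed mean of M-values (TMM) scaling, the count relative to library size, which compares libraries, or as fragments by gene length and library total (FPKM), which also compares genes. Replicates of a group differed by more than counting noise, with a chi-square of 18.4 to 109 per degree of freedom between pairs. Control replicate 3 had the highest level of the control group for 7 of the 8 keratins, Krt2 being the exception.

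The first question was what IMQ did to the keratins of normal skin. Compared with the control group, Krt14, Krt1, Krt10, Krt80 and Krt5 were upregulated and Krt15, Krt77 and Krt2 were downregulated, so that 8 of 8 genes passed the test, 5 higher and 3 lower. Calling a gene required that its adjusted p was below 0.05 and that its log2 fold change passed 0.58 in size. Among all genes tested 24.1% were called higher and 26.9% lower. The groups did not overlap in CPM for 8 of 8 keratins, against 70.0% of all genes. The median log2 fold change of the keratins was 2.16, beside -0.06 over all genes tested.

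Among the basal keratins, Krt14 showed 845, 710 and 1135.6 CPM in the control libraries and 8489.9, 7406.2 and 6863.5 CPM in the IMQ libraries. Every IMQ library was above every control library. The log2 fold change was 3.07 (SE 0.28, adjusted p = 6.94e-05), from the quasi-likelihood test of edgeR with p-values adjusted after Benjamini and Hochberg. Krt5, its type II partner, was at 845, 789 and 1144.9 CPM in the control group and at 3153.1, 2454.1 and 2888.6 CPM in the IMQ group. These groups did not overlap either, and the log2 fold change of Krt5 was 1.60 (SE 0.23, edgeR adjusted p = 0.000558).

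Krt15 moved against its basal neighbours. Its CPM was 182, 170 and 238 in the control libraries and 115, 104 and 127 in the IMQ libraries, so that the highest IMQ library lay below the lowest control library. The log2 fold change was -0.78 (SE 0.16, edgeR adjusted p = 0.00396). Krt15 is a basal gene whose change was under the stricter fold threshold of 1.

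Parts of the sequence of the basal keratins are shared with other keratins that also changed in IMQ against control. Krt16, Krt6a and Krt6b rose more than Krt14 and Krt5 (log2 fold changes 6.98, 6.19 and 7.45), and no fold change is given here for Krt17. Of the 50-base windows in their annotated transcripts, 13.9% for Krt14 were also in Krt16 or Krt17 and 8.52% for Krt5 were also in Krt6a, Krt6b or in predicted keratin-like models, among keratin and unnamed gene models searched. For Krt15 the share was 0.64%, and for the suprabasal keratins 0. Windows shared between the keratins described here were not counted. The values of Krt14 and Krt5 are uncertain to the extent that reads from such stretches were divided between genes, and the part of this in the results was not tested.

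Among the suprabasal keratins, Krt1 was at 1639.6, 1664.2 and 2764.7 CPM in control skin and at 14785.2, 19563.2 and 22461.9 CPM in IMQ skin. All IMQ libraries were far above the controls, with a log2 fold change of 3.22 (SE 0.37, edgeR adjusted p = 0.000201). Its partner Krt10 went from 1426.7, 1449 and 2674 CPM to 7946.4, 14240.7 and 14634.8 CPM. IMQ replicate 1 was the lowest of its group for Krt10 and still above all controls, and the log2 fold change was 2.72 (SE 0.40, edgeR adjusted p = 0.000657).

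Krt80, a type II keratin found near desmosomes of differentiating cells, had 88, 69.5 and 109 CPM in the control libraries and 725, 985 and 1065.6 CPM in the IMQ libraries. With a log2 fold change of 3.37 (SE 0.24, edgeR adjusted p = 2.65e-05) it had the largest rise of the 8 keratins, though Krt1 was within its standard error of it.

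Krt77 and Krt2 went the other way. Krt77 had 686, 396 and 886 CPM in control skin and 2.92, 4.70 and 6.38 CPM in IMQ skin, the latter from 48, 63 and 87 counts. The groups were far apart. Its log2 fold change was -7.15 (SE 0.43, edgeR adjusted p = 1.69e-05), and the TMM-scaled level was 143 times higher in the control group (95% counting interval 124 to 165).

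Krt2, a keratin of the upper living layers, was the least abundant gene here, at 12.1, 27.1 and 23.4 CPM in control skin. The IMQ libraries held 1 count each. The control level was 304 times higher (95% counting interval 104 to 1473.9, from 1315 against 3 counts), and the edgeR adjusted p was 2.02e-05. Counting intervals cover counting error only.

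**Figure D1:**
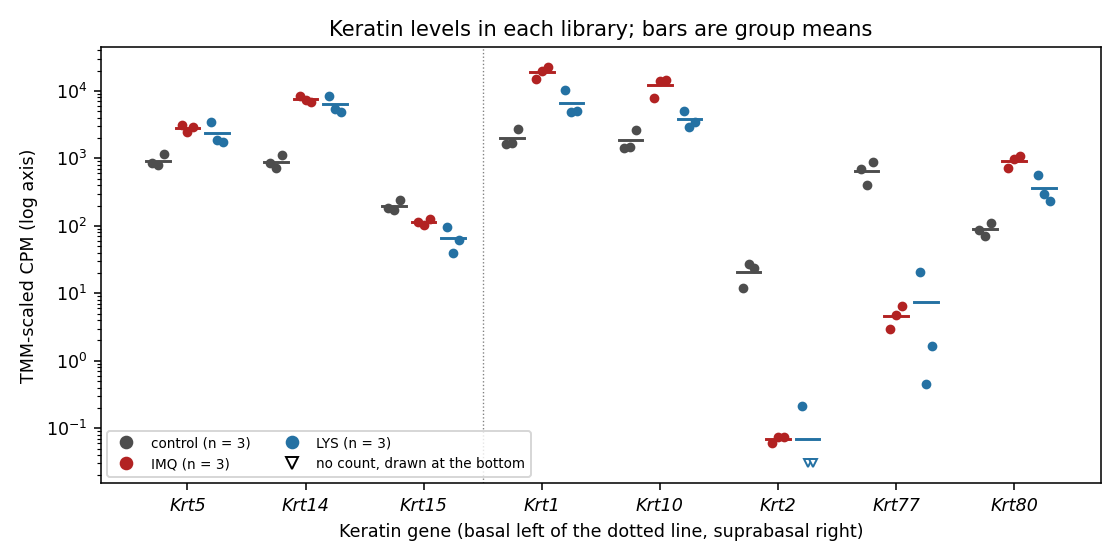
TMM-scaled CPM of each keratin (log axis) in every library, with points for libraries, bars for group means and open triangles for libraries with no count. Krt14, Krt5, Krt1, Krt10 and Krt80 sit higher in all IMQ libraries than in all control libraries, and Krt15, Krt2 and Krt77 lower.

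The type II genes that moved in opposite directions are neighbours on chromosome 15. Krt1 rose, while Krt2 on one side, 27256 bases away, and Krt77 on the other, 7936 bases away, fell. The cluster holds 26 keratin genes in the table, of which 20 were tested in IMQ against control. Of these 20, 7 were called higher and 12 lower, beside 24.1% and 26.9% of all genes tested. The genes next to Krt5 also divided, since the stress keratins Krt6a and Krt6b rose (log2 fold changes 6.19 and 7.45) and Krt71, a keratin of the inner root sheath of the hair, fell from 1239.8 CPM on average to 0.144 CPM.

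**Figure D2:**
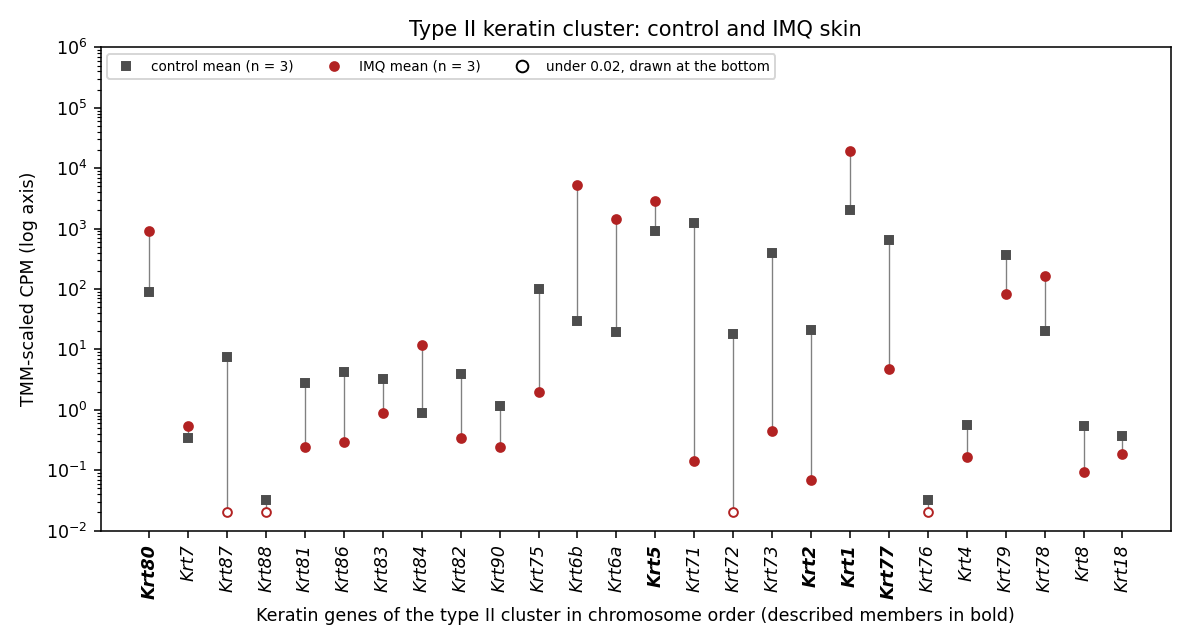
Group mean CPM (log axis) of the 26 type II cluster keratins in chromosome order, control as squares and IMQ as circles, with open circles for means under 0.02. Krt1 rises from 2022.9 to 18936.8 CPM between Krt2 and Krt77, both of which fall.

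The second question was what LYS did in IMQ-treated skin. No keratin passed the test between LYS and IMQ. Krt2 was under the filter on low counts, and of the 7 keratins tested 0 were called, as were 0.0% of all genes tested, 0 of 15460. The smallest adjusted p over all genes was 0.0591 in edgeR. At an unadjusted p under 0.05, 4 of 7 keratins were lower (15.9% of all genes), and 5435 genes passed in either direction. For 4 of the 7, Krt15, Krt1, Krt10 and Krt80, the groups did not overlap in CPM, against 38.9% of all genes.

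The lower values included the suprabasal pair Krt10 and Krt1, Krt80 and the basal keratin Krt15. Krt10 was at 5004.2, 2959.5 and 3494.3 CPM in the LYS libraries, all below the lowest IMQ library. The log2 fold change was -1.62 (SE 0.36), with an edgeR adjusted p of 0.0591, equal to the smallest of any gene. Krt1 was at 10160.1, 4818.4 and 5034.2 CPM, with a log2 fold change of -1.45 (SE 0.41, edgeR adjusted p = 0.0677).

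Krt80 showed 572, 301 and 233 CPM with LYS, and its log2 fold change was -1.27 (SE 0.34, edgeR adjusted p = 0.0645). LYS replicate 1 was the highest LYS library for Krt80, as it was for the other 7 keratins.

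These 3 genes were called under some other choices of fit or tool and not under others. In a fit over all 9 libraries, Krt1, Krt10 and Krt80 were called lower, with adjusted p of 0.0293, 0.0231 and 0.027 (edgeR), where 8.62% of all genes were called lower. DESeq2 called the same 3 genes, where 9.18% of all genes were called lower. Without LYS replicate 1, Krt15, Krt1, Krt10, Krt77 and Krt80 were called lower, as were 11.9% of all genes. Without IMQ replicate 1, only Krt10 was called lower, as were 5.03% of all genes. With a replicate block or scaling by library totals alone, 0 keratins were called. The same held without IMQ replicate 2, IMQ replicate 3, LYS replicate 2 or LYS replicate 3.

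The basal pair did not show this. Krt14 was at 8534.7, 5437.6 and 4901.5 CPM in the LYS libraries, which overlapped the IMQ libraries, and its log2 fold change was -0.21 (SE 0.30, edgeR adjusted p = 0.641). Krt5 was at 3517.8, 1899.4 and 1722.8 CPM, with a log2 fold change of -0.19 (SE 0.31, edgeR adjusted p = 0.679). These values do not show that the basal keratins were unaffected, and their sign turned to 0.02 and 0.04 when libraries were scaled by their totals alone. Krt15 was at 96.1, 40.1 and 61.6 CPM, below the lowest IMQ library in each case, with a log2 fold change of -0.75 (SE 0.29, edgeR adjusted p = 0.119).

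For Krt77, LYS replicate 1 decided the value. The LYS libraries had 20.5, 0.453 and 1.66 CPM, from 293, 8 and 29 counts. Replicate 1 was above all IMQ libraries and the others were below them. The log2 fold change was 0.72 (SE 1.14, edgeR adjusted p = 0.675) and became -2.04 without that library. Krt2 had 3, 0 and 0 counts in the LYS libraries, and no fold change is given for it against IMQ.

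The third comparison set LYS skin against control skin. All 8 keratins passed the test, 5 higher and 3 lower in LYS, against 15.1% of all genes called higher and 12.9% called lower. The groups did not overlap for 8 of 8, against 50.3% of all genes. IMQ and LYS are compared here with the same control libraries, so these changes are not separate from those in the IMQ group.

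Krt14 stood furthest above the control group, with a log2 fold change of 2.82 (SE 0.33, edgeR adjusted p = 0.00136). Krt80 followed at 2.06 (SE 0.36, adjusted p = 0.00547), Krt1 at 1.73 (SE 0.39, adjusted p = 0.0146) and Krt5 at 1.37 (SE 0.33, adjusted p = 0.0178), all from edgeR. Krt10 was closest to its control level, at 1.05 (SE 0.34, edgeR adjusted p = 0.0488). The Krt10 call was lost in 8 of the alternatives, and leaving out control replicate 1 or control replicate 2 also ended the calls of Krt5 and Krt1.

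On the lower side, Krt15 had a log2 fold change of -1.57 (SE 0.32, edgeR adjusted p = 0.00956). For Krt77 it was -6.45 (SE 1.26, edgeR adjusted p = 0.00857), with a control level 97.6 times higher (95% counting interval 87.6 to 109). LYS replicate 1 held 293 of the 330 counts, and without it the Krt77 log2 fold change was -9.26 and the control level 618 times higher (95% counting interval 448 to 878). Krt2 was 345 times higher in the control group (95% counting interval 118 to 1674.8, from 1315 against 3 counts), with an edgeR adjusted p of 0.000488. All 3 counts were in LYS replicate 1, and without it Krt2 was at least 245-fold higher in the control group, against a floor of 3 counts over the remaining libraries. The keratins that IMQ skin had nearly lost were still at trace levels with LYS.

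**Figure D3:**
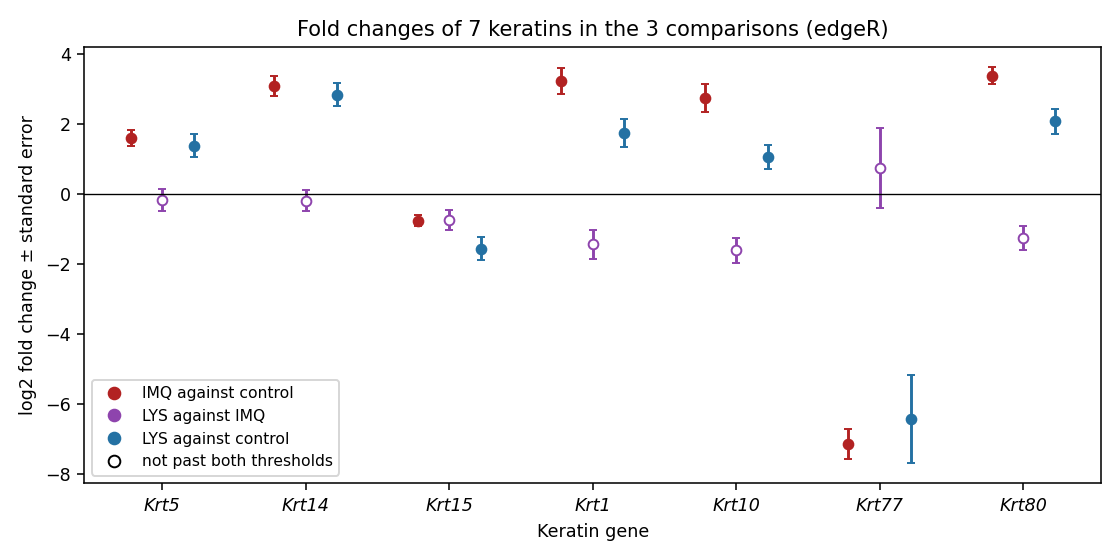
Log2 fold changes with standard errors of 7 keratins in the 3 comparisons, filled where both thresholds were passed. Krt1, Krt10 and Krt80 lie lower in LYS against control than in IMQ against control, whereas Krt14 and Krt5 lie close together, and Krt2 is left out because its fitted value depends on the prior count.

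Per length, the order of the keratins changed between groups. In control skin Krt10 led with 1012.8 ± 433 FPKM (SD, n = 3), ahead of Krt14 (589 ± 167), Krt1 (529 ± 190) and Krt5 (486 ± 121), and neighbours among these overlapped. Krt77 (259 ± 107 FPKM) overlapped Krt15 (128 ± 29.1), with Krt80 (16.0 ± 4.2) and Krt2 (9.14 ± 3.34) below and separate. In IMQ skin Krt10 (4777.9 ± 1168.8 FPKM), Krt14 (3629.2 ± 687) and Krt1 (3553.4 ± 522) overlapped and were above Krt5 (1084.6 ± 217).

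In LYS skin Krt14 led with 3688.8 ± 917 FPKM (SD, n = 3) and did not overlap Krt10 (1867.9 ± 419). Krt1 (1550.3 ± 606 FPKM) overlapped Krt10 above it and Krt5 (1112.3 ± 392) below it, and Krt5 did not overlap the next gene, Krt80. Krt80 ranked above Krt15 in both treated groups, with 120 ± 15.4 against 54.6 ± 7.17 FPKM in IMQ skin and, with overlap, 59.1 ± 25.0 against 38.4 ± 14.6 FPKM in LYS skin. Krt77 was at 1.31 ± 0.424 FPKM with IMQ and 2.54 ± 3.72 with LYS. The FPKM length is the union of all annotated exons, 4415 bases for Krt1 and 2114 for Krt10, so the rank of a gene depends on that annotation.

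The 8 keratins took 0.653%, 0.582% and 1.07% of all counts in the control libraries, 3.22%, 3.53% and 3.87% in the IMQ libraries and 2.73%, 1.63% and 1.70% in the LYS libraries. The groups did not overlap, and the mean rose by 2.77 percentage points from control to IMQ and was 1.52 points lower in LYS than in IMQ (difference -1.52). Each comparison reached the smallest p of the two-sided exact permutation test with 3 libraries against 3, 0.1, so the design cannot give a p under 0.05.

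Within these keratins the make-up shifted. Krt14 made up 19.7% ± 1.44 of their summed FPKM in control skin, 27.7% ± 6.99 in IMQ skin and 44.6% ± 2.47 in LYS skin (SD, n = 3). Krt10 made up 32.9% ± 3.08, 35.9% ± 7.07 and 22.7% ± 2.58. Krt77 went from 8.47% ± 1.91 in control skin to 0.0098% ± 0.00256 with IMQ and 0.0244% ± 0.0327 with LYS, and Krt15 from 4.34% ± 0.44 to 0.415% ± 0.065 and 0.457% ± 0.0991.

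**Figure D4:**
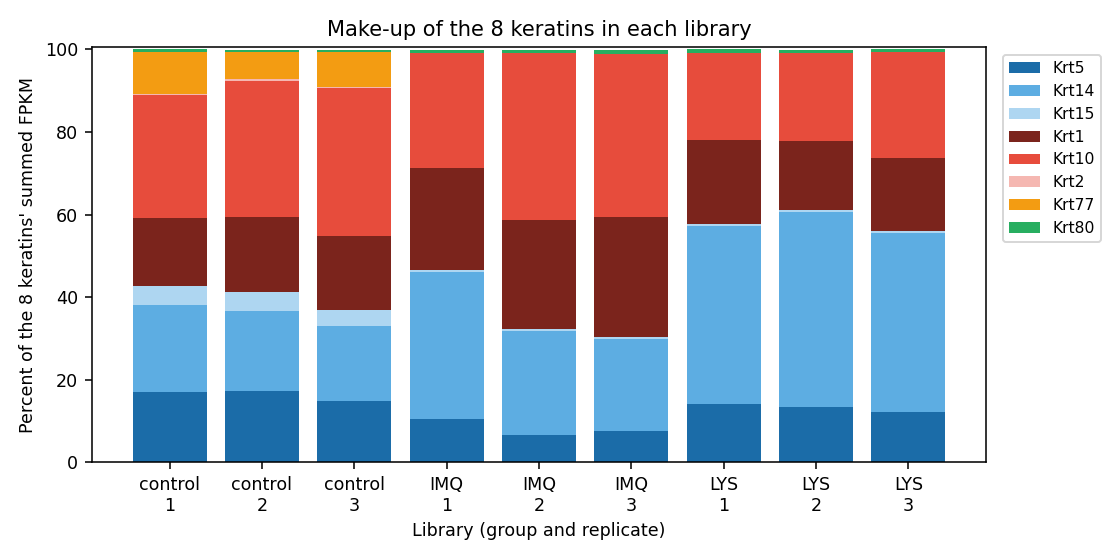
Share of each keratin in the summed FPKM of the 8 keratins, by library, as stacked bars. The Krt77 and Krt15 bands of the control libraries shrink to under 1% in IMQ and LYS, and the Krt14 band is widest in the LYS libraries, at 43.1% to 47.4%.

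Ratios within a library do not depend on scaling between libraries. The type I switch, Krt10 over Krt14, was 1.40, 1.70 and 1.96 in the control libraries, 0.778, 1.60 and 1.77 in the IMQ libraries and 0.488, 0.453 and 0.593 in the LYS libraries. LYS libraries were below all others, by 1.36 on the log2 scale from IMQ (difference -1.36) and by 1.72 from control (difference -1.72), whereas IMQ and control overlapped (difference -0.36, exact permutation p = 0.6). The type II switch, Krt1 over Krt5, was 0.966, 1.05 and 1.20 in control, 2.33, 3.97 and 3.87 in IMQ and 1.44, 1.26 and 1.45 in LYS. Here the 3 groups were all apart, with IMQ highest, LYS next and control lowest.

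The partners within a layer also separated. Krt5 over Krt14 was 0.80, 0.889 and 0.807 in the control libraries, 0.297, 0.265 and 0.337 with IMQ and 0.33, 0.28 and 0.281 with LYS. Both treated groups were below control (log2 differences -1.48 and -1.49) and overlapped each other (-0.01, exact permutation p = 0.9). Krt1 over Krt10 was 0.55, 0.55 and 0.495 in control, 0.891, 0.658 and 0.735 with IMQ and 0.972, 0.78 and 0.69 with LYS, and again the treated groups overlapped each other and not the control group.

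Krt80 over Krt1 varied little, from 0.0272 to 0.0371 in control, from 0.0328 to 0.0348 in IMQ and from 0.032 to 0.0431 in LYS, and all groups overlapped. Krt15 over Krt14 was 0.209 to 0.238 in control, 0.0135 to 0.0183 with IMQ and 0.00734 to 0.0125 with LYS, with no overlap between groups. Over 24 tests of 8 ratios, groups did not overlap in 16, and the smallest exact permutation p was 0.1 (0.15 after Benjamini-Hochberg adjustment), the smallest this design allows.

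**Figure D5:**
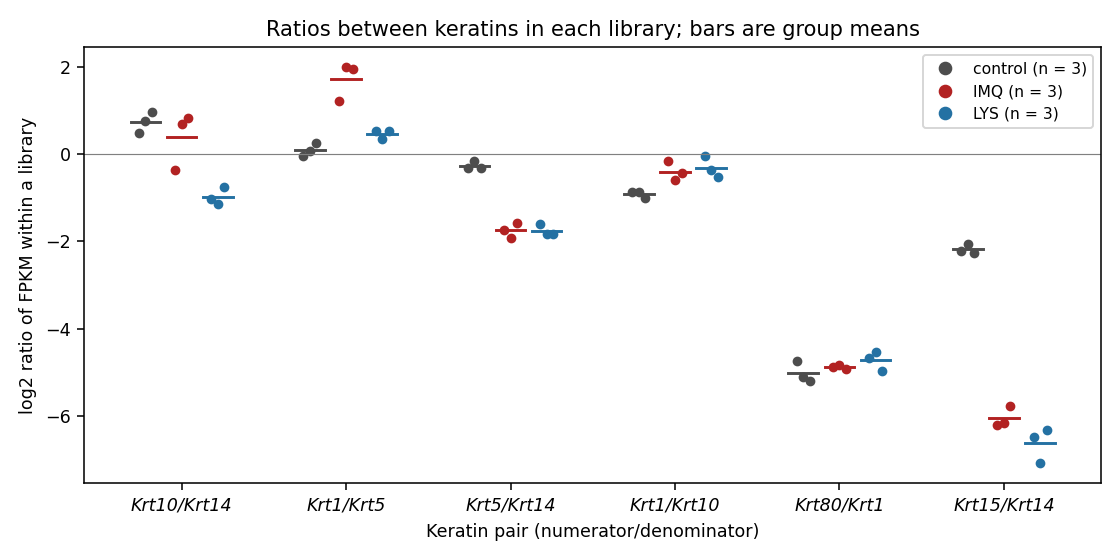
Log2 ratios of FPKM between keratins in each library, with bars for group means. Krt10/Krt14 is lowest in the 3 LYS libraries, Krt1/Krt5 highest in the 3 IMQ libraries, and Krt5/Krt14 and Krt15/Krt14 lie below control in both treated groups.

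Genes with the most similar course over the 9 libraries were ranked by the root mean square difference of centred log2(CPM + 1) among 10378 genes. Krt1 was closest to Dmkn (0.11), which encodes the epidermal secreted protein dermokine, and to Eps8l1 (0.12). Krt80 was closest to Tprg (0.10) and Evpl (0.11), the latter encoding envoplakin of the cornified envelope. Krt5 was closest to Lamb3 and Col7a1, a laminin chain and the anchoring fibril collagen of the basement membrane (0.13 each).

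Krt15 was closest to Tnfrsf19 (0.19) and Vdr, the vitamin D receptor (0.25), and Krt14 to Tmigd1 (0.21) and the glucose transporter gene Slc2a1 (0.27). Krt10 was closest to 9930012K11Rik (0.14) and Xkrx (0.18). Krt2 was closest to Bach2 (0.52) and Pmel, a melanosome gene (0.53). Krt77 was closest to Krt28 (0.93) and Krt27 (0.97), inner root sheath keratins. These distances are larger, but so was the variation of the 2 genes themselves. Their root mean square about their own mean was 2.04 for Krt2 and 3.45 for Krt77, beside 0.74 to 1.43 for the other keratins. The larger distances therefore do not by themselves mark a poorer match. Adding 1 CPM before the log reduces differences at low levels. Krt2 averaged 0.0696 CPM in IMQ and 0.0699 CPM in LYS, so its variation and nearest genes depend on that addition.

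Other genes of the same layers came from lists of names, chosen with earlier results of these data known. For these lists and those that follow, the shares over all genes are the same. In IMQ against control 24.1% were called higher and 26.9% lower, and in LYS against control 15.1% and 12.9%. Of 18 suprabasal companions, 18 were called higher in IMQ against control, with a median log2 fold change of 3.12. Among them Casp14, a protease of cornification, rose from 77.9 to 2868.1 CPM on average (log2 fold change 5.19) and Tgm3, a transglutaminase, from 30.2 to 865 CPM (4.83). In LYS against IMQ 0 of 18 were called, although all 18 values were lower (median -1.07), and in LYS against control 17 of 18 were called higher (median 1.90). Without LYS replicate 1, 17 of the 18 were called lower in LYS against IMQ, beside 11.9% of all genes, and DESeq2 called 16, beside 9.18%. Other alternatives called 0 genes in this comparison. These were a replicate block, scaling by library totals alone, and leaving out IMQ replicate 2, IMQ replicate 3, LYS replicate 2 or LYS replicate 3.

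Of 14 basal companions, 7 were called higher and 2 lower in IMQ against control, with a median of 0.59. Lamb3 rose (log2 fold change 1.80) as did Sdc1, a syndecan (1.82), whereas Itgb1, the beta-1 integrin chain that anchors basal cells and is also made by other skin cells, fell (-1.41). In LYS against control 6 were called higher and 1 lower, though without control replicate 1 only 1 was called higher. Of 18 genes whose products link keratin filaments to junctions or to each other, 10 were called higher and 3 lower with IMQ. Pkp1, the plakophilin of suprabasal desmosomes, rose (2.59), while Tchh, trichohyalin of the inner root sheath, fell (-4.85).

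All 4 stress keratins rose with IMQ, with Krt6b from 30 to 5281.8 CPM and Krt16 from 44.7 to 5707.7 CPM, and 4 of 4 remained called higher in LYS against control. Of 20 hair and inner root sheath keratins tested, 18 were called lower in IMQ and 19 in LYS, each against control. The other epithelial keratins had 2 called higher and 4 lower of 6 tested with IMQ.

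Markers of other skin components also differed between control and IMQ skin. Of all genes tested in that comparison, 26.9% were called lower and 24.1% higher. In IMQ against control, 7 of 7 sebaceous gland, 7 of 7 adipocyte, 7 of 8 dermal fibroblast, 5 of 7 skeletal muscle and 7 of 9 follicle stem and outer root sheath markers were called lower, and 6 of 10 leukocyte markers were called higher. Summed CPM of the hair and inner root sheath keratins was 2154.2 to 4400.6 in control, 10.3 to 19.6 in IMQ and 4.64 to 10.4 in LYS libraries. No marker was at 0 in all libraries. Summed fibroblast markers ranged from 22194 to 28303.8 CPM in control, from 3414.4 to 10798.2 in IMQ and from 9303.7 to 18040.3 in LYS libraries.

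Summed adipocyte markers ranged from 4661.3 to 11766.2 CPM in control, 513 to 1456.9 in IMQ and 1509.3 to 3545.5 in LYS libraries, and skeletal muscle markers from 9554.9 to 10284.5, 1796.6 to 4758.2 and 4412 to 8666.6. Sebaceous gland markers summed to 5180.4 to 15429.6 CPM, 565 to 1598.7 and 1477.4 to 2173.4, follicle stem markers to 543 to 616, 117 to 190 and 242 to 368, and leukocyte markers to 505 to 653, 21577.6 to 28884.8 and 7054.7 to 17889.6, in the same order. The leukocyte sums are led by S100a9, which keratinocytes can also make (means of 15.8, 13812.6 and 7003.6 CPM), and 6 of the 10 leukocyte markers were higher in LYS than in IMQ (median log2 fold change 0.68, 0 called). Of the 10, 3 had lower values in IMQ than in control. The part of these markers in the keratin values was not tested.

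Proliferation genes did not follow Krt5 and Krt14. All 7 were called lower in IMQ against control (median log2 fold change -1.11), beside 26.9% of all genes. Their summed CPM was 624 to 856 in control, 272 to 456 in IMQ and 276 to 519 in LYS libraries. These are RNA levels of whole skin, whereas the study reported more Ki67 and PCNA protein in IMQ skin than in control skin. Proliferating cells of the hair follicle and of the epidermis cannot be told apart in these libraries.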

How the data were processed

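RNA of back skin was sequenced in 9 libraries, 3 per group, grouped by sample title. The deposited table holds raw counts per gene and FPKM, which the authors made from reads. The submitters' processing notes name HISAT2, HTSeq 0.13.5 and GRCm38 without giving their roles. In all 29205 genes, deposited FPKM equalled the count divided by the library's summed counts and by 1 fixed length per gene, up to the unit's constant, within a ratio of 1.001. Strand use in counting is not given in the sources used here, and Gm11940, antisense to Krt10, had 3 to 25 counts.

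Counts were tested with edgeR 4.0.16 in R 4.3.3 (TMM, filterByExpr, quasi-likelihood test, Benjamini-Hochberg over all genes tested), fitting only the compared groups. Genes were called at adjusted p under 0.05 and absolute log2 fold change over 0.58, thresholds of the study's methods. Scripts were tested on simulated data. DESeq2 1.42.0 was an alternative, and its share of calls is over the 15180 genes with an adjusted p. Ratios used FPKM (plus 0.01 where Krt2 is involved) and exact permutation tests.

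Named genes were the 8 keratins, the 2 nearest profiles of each (mean CPM at least 10) and, from each epidermal list, the most abundant and most changed genes. Keratins of the type II cluster outside that rule (Krt6a, Krt71) were named after their values were seen. The members and the 13 lists were chosen with earlier results of these data known. Labels do not say that libraries are separate mice, so p-values measure the spread between these samples. Position and RefSeq promoters use GRCm38.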

Additional observations from a re-analysis of the deposited data

How the results depend on the processing

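In IMQ against control the number of keratins called stayed at 7 or 8 under all 13 alternatives, and 103 of 104 single-gene results kept direction and side of the threshold; Krt15 alone was lost, at an absolute log2 fold change over 1. In LYS against IMQ, where 0 keratins and 0 genes were called, DESeq2, no filter on low counts and the fit over all 9 libraries called 3 keratins each, and 3334, 2419 and 3040 genes. Leaving out single libraries gave 0 to 5 keratins (1 without IMQ replicate 1, 5 without LYS replicate 1) and 0 to 4262 genes. Scaling by library totals alone, which moved the median of all genes to 0.29, turned Krt5 to 0.04 and Krt14 to 0.02. Krt77 ranged from -2.04 to 1.28 over the left-out libraries. In LYS against control, leaving out libraries gave 5 to 8 keratins (5 without control replicate 1 or 2, where Krt5, Krt1 and Krt10 were lost) and 2579 to 5072 genes, against 8 and 4476, and an absolute log2 fold change over 1 gave 2910 genes. As a percent of summed FPKM, the share differed by 2.16 percentage points in IMQ against control and by -0.898 in LYS against IMQ. The causes were not tested. Alternatives for the gene lists were added after seeing the data.

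Deviations of same-numbered libraries from their group means had correlations of -0.0572 to 0.2, -0.46 to 0.0787 and -0.376 to 0.0191 in the 3 comparisons. The labels state no pairing, and with 3 libraries a group these correlations cannot exclude one. With a replicate block, 8, 0 and 6 keratins and 8044, 0 and 3126 genes were called in the comparisons, and Krt77 in LYS against IMQ became -0.83. With 3 libraries a group, small differences of the basal keratins between LYS and IMQ could not be resolved, and Krt2 in treated skin is at the limit of depth.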
